A study of Homo sapiens with 12 samples.

Results

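The S100 family comprises small calcium-binding proteins of vertebrates, and 10 of its genes are described here in MCF-12A, a human breast epithelial cell line of non-tumour origin. The members were S100A2, S100A4, S100A6, S100A7, S100A8, S100A9, S100A10, S100A11, S100A14 and S100P, chosen by symbol among the 11504 genes of one deposited expression table and the 13410 genes of another. Every member had a row in both tables. RNA-seq compared cells that received TGFbeta1, a secreted cytokine used to drive epithelial-mesenchymal transition, with control cells given vehicle. Replicates 4 to 6 of TGFbeta1 and of control cells make up the table called the second set here, and replicates 1 to 3 that called the first set, which makes 12 libraries, 6 for each agent. All cells were of this 1 line, and no other genetic change or agent is named. The labels used here give neither dose nor time of treatment. Neither do the labels say whether replicates were separate cultures, so the p-values speak only to the spread among these libraries, and that spread may be technical.

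S100 proteins fold around a pair of EF-hand calcium-binding loops and act mostly as dimers, which open on binding calcium and then grip a partner protein. Inside the cell they regulate cytoskeletal, membrane and annexin proteins. Some are released and act on receptors such as RAGE, the product of AGER, and TLR4. In squamous and mammary epithelium S100A7, S100A8 and S100A9 are known as genes of differentiation, inflammation and antimicrobial defence.

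Levels are FPKM, fragment abundances corrected for transcript length and library size, summed here over the listed transcripts of a gene. They can therefore be compared between genes of 1 table, but the 2 tables were normalised separately and levels are not compared across them. Library depth is unknown, since no counts were used. Per library, FPKM came to a total of 343461 to 358433 in the TGFbeta1 libraries and 338968 to 353707 in the control libraries of the second set. The sums were 291802 to 293787 in the TGFbeta1 libraries and 307852 to 318270 in the control libraries of the first set. All 6 basal epithelial markers examined, KRT5 and KRT14 among them, were listed in both tables. Their summed levels were 1526 to 1700.4 FPKM in TGFbeta1 and 1475 to 1707 in control libraries of the second set. In the first set they were 1810 to 1874 in TGFbeta1 and 2186 to 2918 in control libraries. None of the 6 was called in the second set. In the first set 1 was called higher and 1 lower (median log2 change -0.08). The test called 0.321% of all genes in the second set and 20.9% in the first, 11.9% as lower. Of 5 tested markers of epithelium in general none was called in the second set and 3 were lower with TGFbeta1 in the first (median log2 change -0.66). Of 5 fibroblast markers only DCN was tested in the second set, where it was lower (log2 change -1.14). In the first set only COL1A1 and DCN were tested, and COL1A1 was higher. DCN passed the filter of a mean of 1 FPKM there only through its TGFbeta1 libraries, so its test is not given. The part of these markers in the S100 results was not tested. Of 12 genes known to respond to TGFbeta, none of the 10 tested in the second set passed the test (median log2 change -0.21). All 12 were called higher in the first set (median 2.05), although CDH2 passed the filter only through its TGFbeta1 libraries and is no support. The matrix protein gene FN1, for example, averaged 243 ± 61.9 FPKM in TGFbeta1 and 397 ± 15.9 in control libraries of the second set, but 214 ± 13.2 in TGFbeta1 and 26.7 ± 2.43 in control libraries of the first set (SD, n = 3 each). The treatment labels of the second set are GEO's and no response gene tested there bears them out.

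On hg19, the build of the files, 9 of the 10 members lie on chromosome 1, where the S100 genes form a cluster within a region of epidermal differentiation genes. From the lowest to the highest coordinate they run S100A10, S100A11, S100A9, S100A8, S100A7, S100A6, S100A4, S100A2 and S100A14. S100A9 spans chr1:153330330-153333503 on the plus strand and is the sole member there on that strand. S100A8 spans chr1:153362508-153363664 on the minus strand, with its lower end 32.2 kb above the start of S100A9. S100A7 spans chr1:153430220-153433177, again on the minus strand. S100P lies apart, at chr4:6694796-6698896 on the plus strand of chromosome 4. In the GENCODE v29 models the members code for 90 (S100A6) to 114 (S100A9) amino acids, and the coding sequence is split over 2 exons in 8 members and over 3 exons in S100A11 and S100A14. The 26 listed transcripts of the family were in both tables, and 8 members have 1 coding sequence each whichever transcript is read. The exceptions are S100A2, with coding sequences of 97, 95 and 64 codons, and S100A6, with 90 and 85.

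Promoter windows from RefSeq on GRCh38.p14, each from 250 bases before to 50 bases after an annotated start, were read for all 10 members. Shown are the windows of the 4 genes whose TGFbeta1 effect differed between the sets, and that of S100A10, which was called in no comparison, for contrast. Each runs 5′ to 3′ on the gene's own strand, and capitals mark TATAAA, the letters of a TATA box.
S100A9, chr1:153357604-153357903, plus strand: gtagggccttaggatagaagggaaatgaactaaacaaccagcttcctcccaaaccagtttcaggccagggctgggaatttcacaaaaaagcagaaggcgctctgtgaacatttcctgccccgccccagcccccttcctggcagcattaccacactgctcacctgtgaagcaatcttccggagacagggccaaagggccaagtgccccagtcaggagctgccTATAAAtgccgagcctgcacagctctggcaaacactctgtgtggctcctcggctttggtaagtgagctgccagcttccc
S100A8, chr1:153391024-153391323, minus strand: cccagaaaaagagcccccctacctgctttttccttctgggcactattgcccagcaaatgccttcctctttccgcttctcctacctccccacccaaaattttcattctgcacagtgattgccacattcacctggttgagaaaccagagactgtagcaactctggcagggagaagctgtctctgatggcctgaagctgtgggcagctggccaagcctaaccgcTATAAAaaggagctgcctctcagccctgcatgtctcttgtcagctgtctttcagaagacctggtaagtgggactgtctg
S100A7, chr1:153460602-153460901, minus strand: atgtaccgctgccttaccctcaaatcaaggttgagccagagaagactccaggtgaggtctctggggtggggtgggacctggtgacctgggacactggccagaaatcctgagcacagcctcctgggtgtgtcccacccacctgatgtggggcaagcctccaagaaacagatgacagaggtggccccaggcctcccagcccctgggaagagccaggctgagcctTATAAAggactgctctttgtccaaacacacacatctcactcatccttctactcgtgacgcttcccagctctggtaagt
S100P, chr4:6693628-6693927, plus strand: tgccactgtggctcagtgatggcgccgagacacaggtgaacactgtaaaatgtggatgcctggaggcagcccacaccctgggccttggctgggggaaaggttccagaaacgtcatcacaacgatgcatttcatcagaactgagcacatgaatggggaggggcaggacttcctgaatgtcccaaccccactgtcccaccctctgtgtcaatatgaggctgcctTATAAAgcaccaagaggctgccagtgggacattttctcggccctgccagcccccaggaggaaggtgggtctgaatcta
S100A10, chr1:151993810-151994109, minus strand: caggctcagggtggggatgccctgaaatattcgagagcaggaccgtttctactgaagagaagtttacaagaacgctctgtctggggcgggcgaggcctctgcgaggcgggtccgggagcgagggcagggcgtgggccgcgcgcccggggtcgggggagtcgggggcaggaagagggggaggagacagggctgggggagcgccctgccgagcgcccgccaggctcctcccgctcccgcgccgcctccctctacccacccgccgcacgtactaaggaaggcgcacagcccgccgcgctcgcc

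TATAAA begins 29 bases before the annotated start in S100A9 and S100A8, and 28 bases before it in S100A7 and S100P. It was found on either strand in at least 1 window of 5 of the 10 members, the fifth being S100A4, against 13.99% of 27305 genes with a RefSeq window. S100A8 has 3 annotated windows, of which 2 hold the letters, and the one shown is not the nearest to the start of its listed transcripts. The starts behind the displayed windows of the 10 members lie 0 to 809 bases from the start of their main GENCODE transcript, with S100P the farthest. An AP-1 motif, TGANTCA on either strand, was in the windows of 1 member, S100A2, against 9.37% of genes. GTCTG, which contains the SMAD box and is CAGAC on the other strand, was in windows of 6 members, against 49.99% of genes. These are matches of letters in these windows and say nothing of which factor binds there.

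Within each set the family included some of the most abundant transcripts of the cell. In the second set S100A6, S100A2 and S100A11 ranked 52, 60 and 67 of 11504 genes by mean FPKM, and in the first set S100A2, S100A6 and S100A11 ranked 12, 29 and 59 of 13410. By this mean over TGFbeta1 and control libraries together S100A4 was the lowest member in both, at rank 2900 and 6548, although in the first-set TGFbeta1 libraries alone S100P was lower, at a mean of 2.74 FPKM against 3.54 for S100A4. Together the 10 genes made up 1.32% to 1.36% of summed FPKM in TGFbeta1 libraries and 1.06% to 1.15% in control libraries of the second set. Their portion in the first set was 1.15% to 1.40% in TGFbeta1 libraries and 1.48% to 1.56% in control libraries.

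**Figure D1:**
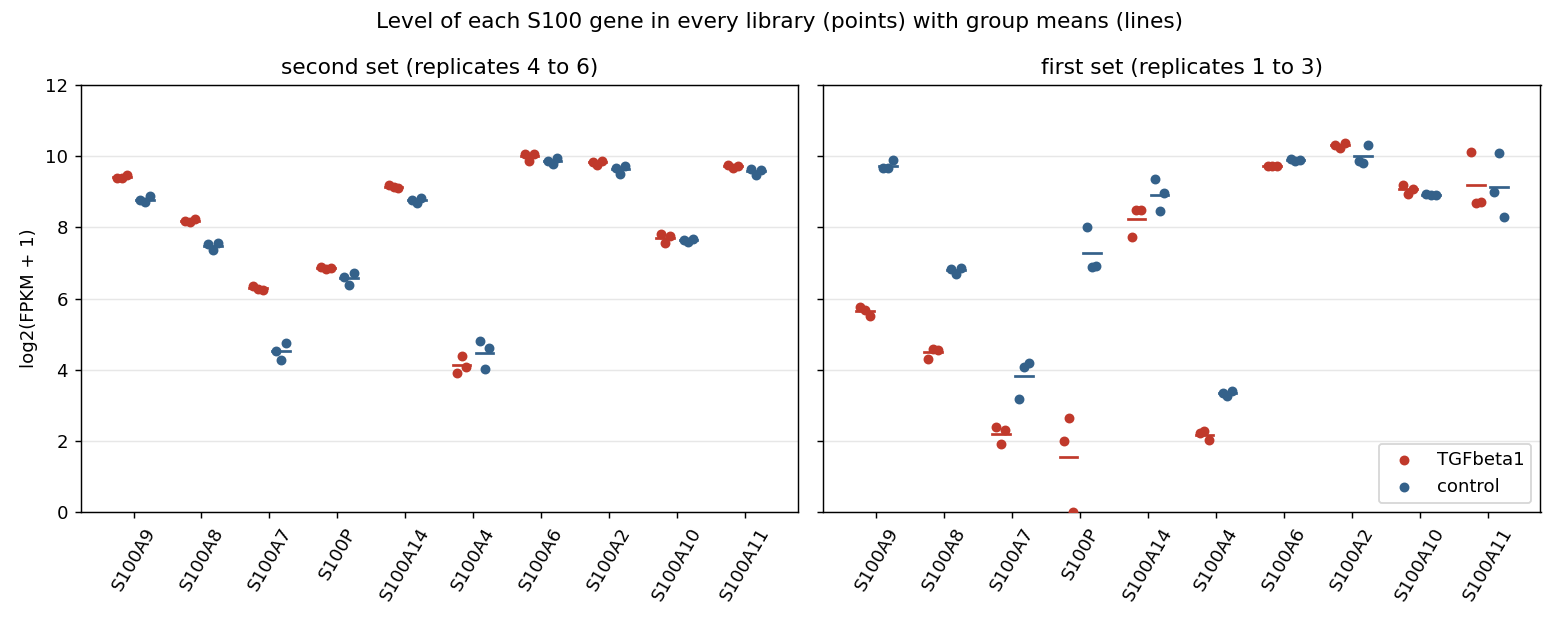
Level of each S100 gene in all 12 libraries as log2(FPKM + 1), with the second set on the left and the first set on the right; points are libraries, lines are group means of 3, TGFbeta1 in red and control in blue. S100A9, S100A8, S100A7 and S100P have TGFbeta1 points above the control points on the left and below them on the right, and S100A11 scatters widely on the right.

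Changes were tested with limma on log2(FPKM + 1), with Benjamini-Hochberg adjustment over all genes of the table, and a gene is called at an adjusted p under 0.05. In the second set 3 of the 10 members were called, all higher with TGFbeta1: S100A7, S100A8 and S100A9. The same test called 0.321% of all 10579 genes there, and 0.17% as higher. Of the members, 6 were called in the first set, all lower with TGFbeta1: S100A4, S100A6, S100A7, S100A8, S100A9 and S100P. There the test called 20.9% of 10454 genes, 11.9% as lower. Among all called genes lower ones outnumbered higher ones as deposited (1245 and 941), but not after median-of-ratios scaling (1008 and 1046) or quantile scaling (971 and 1037). The median log2 change over the 10 members was 0.25 in the second set and -0.92 in the first, beside -0.00 and -0.05 over all genes tested. TGFbeta1 and control libraries did not overlap for 7 members in the second set, all higher with TGFbeta1, where 19.3% of all genes had no overlap and 9.71% none with TGFbeta1 higher. As many did not overlap in the first set, 6 lower and 1 higher (S100A10), against 43.3% of genes, 25.1% with TGFbeta1 lower and 18.2% with it higher. The difference between the sets in the TGFbeta1 effect, second minus first, was tested in 1 model and called for S100A7, S100A8, S100A9 and S100P, all positive, where 13.6% of 10571 genes were called and 7.54% as positive. RNA came from whole cultures, so fewer cells expressing a gene and less RNA per cell cannot be told apart.

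**Figure D2:**
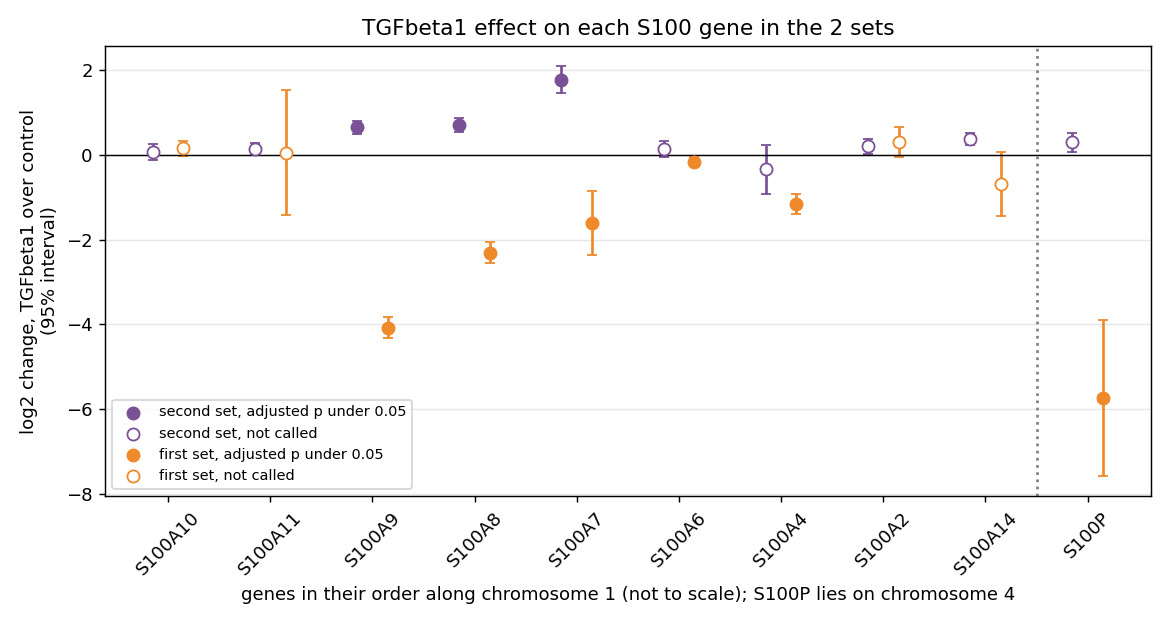
Log2 change with TGFbeta1 over control for each S100 gene, ordered along chromosome 1 with S100P of chromosome 4 at the right; the second set is purple, the first set orange, bars are 95% intervals and filled points have an adjusted p under 0.05. The 3 called changes of the second set lie above 0 and the 6 of the first set below it, from -0.17 for S100A6 to -5.73 for S100P.

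S100A9 and S100A8 form calprotectin, a heterodimer that sequesters zinc and manganese from microbes. S100A9 had 671, 672 and 712 FPKM in the TGFbeta1 libraries of the second set, against 434, 415 and 466 in the controls. Every TGFbeta1 library was above every control library. First-set S100A9 was at 53.5, 50.2 and 44.4 FPKM with TGFbeta1, against 806, 809 and 942 in the controls. All TGFbeta1 libraries were here far below all controls, whose mean was 17.3 times as high. The log2 change was 0.64 in the second set (SE 0.06, adjusted p = 0.0326) and -4.08 in the first (SE 0.10, adjusted p = 4.8e-05). Between the sets the effects differed by 4.73 (SE 0.12, adjusted p = 1.1e-08), beyond the spread between libraries.

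S100A8 followed S100A9 in direction. It had 288, 282 and 303 FPKM with TGFbeta1 in the second set, against 185, 163 and 188 in the controls. Its first-set levels were 18.9, 22.9 and 22.7 FPKM with TGFbeta1, against 113, 102 and 115 in the controls. The groups did not overlap in either set, TGFbeta1 being the higher group in the second and the lower in the first. The log2 change was 0.70 in the second set (SE 0.07, adjusted p = 0.0380) and -2.31 in the first (SE 0.10, adjusted p = 0.000133), with a difference of 3.005 (SE 0.13, adjusted p = 2.6e-07). The calls of the second set are narrow: without any one of its 6 libraries the adjusted p was 0.0806 to 0.132 for S100A8 and 0.0718 to 0.130 for S100A9, with log2 changes of 0.63 to 0.74 and 0.60 to 0.69. Without the variance trend it was 0.0583 for each. The calls of the first set and of the difference held without any one library for both genes.

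The ratio between the RNAs of the 2 calprotectin subunits was read in each library, and protein was not measured. S100A9 over S100A8 was 2.33, 2.38 and 2.35 in the TGFbeta1 libraries of the second set, against 2.34, 2.54 and 2.47 in the controls. The groups overlapped (exact permutation test, two-sided, p = 0.3). The first-set ratio was 2.83, 2.19 and 1.95 with TGFbeta1, against 7.13, 7.91 and 8.21 in the controls. These groups were far apart, with means of 2.33 ± 0.453 with TGFbeta1 and 7.75 ± 0.556 in the controls (SD, n = 3 each; exact permutation test, two-sided, p = 0.1, the smallest that 3 against 3 libraries allow). The first-set controls thus held more S100A9 RNA per S100A8 RNA than the other 3 groups, a contrast across groups that was not tested. S100A8 is listed with 2 transcripts that share 1 coding sequence, and its main transcript held 90.3% to 100% of the gene's FPKM in every library of both sets.

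**Figure D3:**
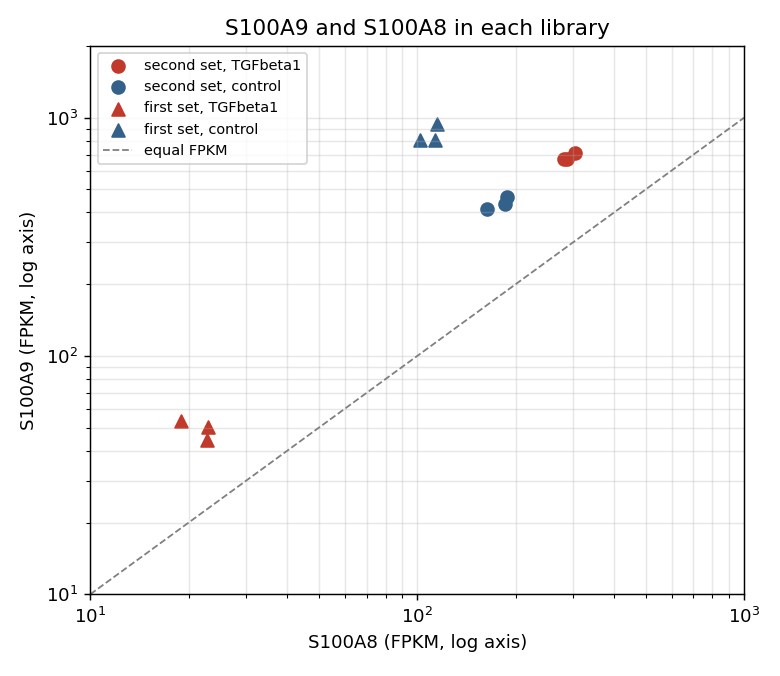
FPKM of S100A9 against FPKM of S100A8 in each of the 12 libraries on log axes, with circles for the second set, triangles for the first set, red for TGFbeta1, blue for control and a dashed line where both are equal. Of the 4 groups the first-set controls lie farthest from the dashed line, at ratios of 7.13 to 8.21, and the other 9 libraries lie at 1.95 to 2.83.

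Calprotectin genes are also abundant in granulocytes and monocytes, so markers of those cells were read beside them. Of 9 such markers, rows for PTPRC, ITGAM, CSF3R, FCGR3B, MPO and FCN1 were in neither of the tables analysed here. LYZ was listed in the first set at 0 in all TGFbeta1 libraries and at most at 0.120 FPKM in controls. CD14, a coreceptor for lipopolysaccharide, averaged 8.69 ± 0.339 FPKM with TGFbeta1 and 5.35 ± 1.08 in controls of the second set (adjusted p = 0.181 from limma), and 0.581 ± 0.124 with TGFbeta1 and 2.84 ± 0.290 in controls of the first set (SD, n = 3 each), where it passed the filter only through the controls and its test is not given. The receptor gene CSF1R ran the other way in the first set, at 3.70 ± 0.388 FPKM with TGFbeta1 and 1.34 ± 0.144 in controls. The summed level of the listed markers was 8.86 to 9.51 FPKM with TGFbeta1 and 5.39 to 7.23 in controls of the second set, and 3.88 to 4.85 with TGFbeta1 and 3.88 to 4.57 in controls of the first set. Their part in the calprotectin result was not tested. S100A12, the third gene of this group and another ligand of RAGE, stood under the filter of a mean of 1 FPKM in both sets and was not tested. It was listed at 0.830, 0.795 and 1.46 FPKM with TGFbeta1 and 0.675, 0.433 and 0 in controls of the second set, which did not overlap. First-set S100A12 was at 0, 0.112 and 0 FPKM with TGFbeta1 and 2.31, 0.900 and 1.71 in controls.

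S100A7, or psoriasin, is an antimicrobial protein of squamous epithelium and of some breast tumours. It had 81.1, 76.0 and 74.3 FPKM with TGFbeta1 in the second set, against 22.3, 18.2 and 26.0 in the controls, a ratio of means of 3.48. The first set gave 4.30, 2.77 and 3.92 FPKM with TGFbeta1, against 8.07, 15.9 and 17.2 in the controls. The groups were again apart in both sets, and control 1 was the lowest of the first-set controls. The log2 change was 1.77 in the second set (SE 0.13, adjusted p = 0.0179) and -1.61 in the first (SE 0.30, adjusted p = 0.0179), and the difference was 3.38 (SE 0.35, adjusted p = 0.000141). The second-set call was lost without TGFbeta1 4 (adjusted p = 0.0715), TGFbeta1 6 (0.0599) or control 4 (0.0906), and in the first set without TGFbeta1 2 (0.0604), TGFbeta1 3 (0.0518) or control 2 (0.0602). That difference was called without any one of the 12 libraries. S100A7 has close paralogs such as S100A7A, between which reads may be split or shared, so its level is uncertain to that extent.

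S100P is a secreted and cytoplasmic protein, first found in placenta, that binds ezrin and RAGE. It had 118, 112 and 115 FPKM with TGFbeta1 in the second set, against 96.5, 82.9 and 104 in the controls. All TGFbeta1 libraries were above the controls, but the change of 0.29 on the log2 scale was not called (SE 0.09, adjusted p = 0.332). First-set S100P was at 2.98 and 5.23 FPKM with TGFbeta1, and listed at 0 in TGFbeta1 3, against 259, 118 and 119 in the controls. The control libraries were all far above the TGFbeta1 libraries, and control 1 was more than double its fellows. The log2 change was -5.73 (SE 0.74, adjusted p = 0.00492), the deepest of the family, and -4.96 without TGFbeta1 3, whose 0 can be a failed estimate. The call stood without that library and without any other 1 of the 6 (adjusted p = 0.0055 to 0.021). Between the sets the effects differed by 6.02 (SE 0.79, adjusted p = 0.000653).

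S100A14 is an epithelial member of the cluster that has been tied to cell motility. It had 578, 563 and 546 FPKM with TGFbeta1 in the second set, against 437, 410.0 and 456 in the controls. TGFbeta1 libraries were all higher, yet the log2 change of 0.37 was not called (SE 0.06, adjusted p = 0.105). Among first-set libraries it had 212, 356 and 361 FPKM with TGFbeta1, against 651, 351 and 496 in the controls, and the groups overlapped (log2 change -0.68, SE 0.31, adjusted p = 0.175). The difference between the sets was 1.06 (SE 0.33, adjusted p = 0.0622) and passed the threshold without control 2 (1.29, adjusted p = 0.0193).

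The 4 listed S100A14 transcripts share 1 coding sequence of 104 codons, but the tables divide the gene among them in unlike ways. Transcript S100A14-201 in the second set held 97.6% to 98.0% of the gene's FPKM in TGFbeta1 libraries and 97.9% to 98.6% in controls. Its share in the first set was 5.44% to 69.7% in TGFbeta1 libraries and 2.95% to 49.6% in controls. The largest share there often went to S100A14-204, with 3.58% to 73.8% in TGFbeta1 libraries and 29.7% to 76.3% in controls. S100A14-204 alone had 7.57, 198 and 266 FPKM with TGFbeta1 and 497, 104 and 236 in controls of the first set. Replicates of 1 group thus disagreed on which transcript held the most, and no transcript of the gene was called in either set.

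**Figure D4:**
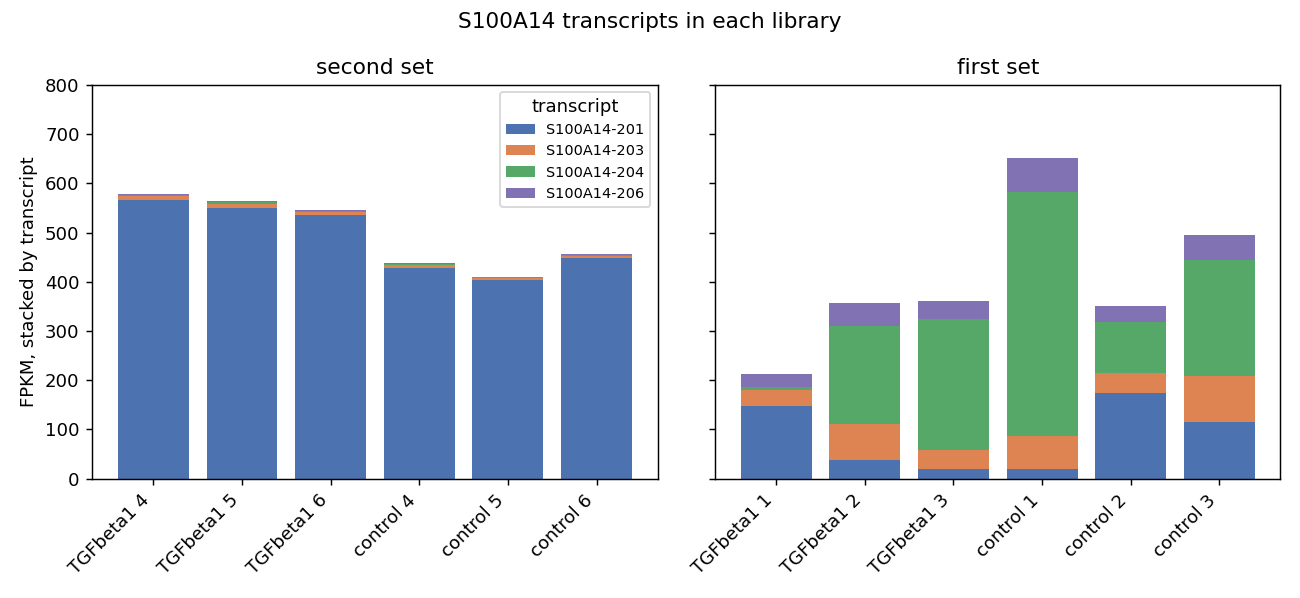
FPKM of the 4 listed S100A14 transcripts, stacked per library, with TGFbeta1 libraries left of control libraries in each set and the second set on the left. S100A14-201 fills nearly the whole bar in the second set, while in the first set the division changes from library to library, with S100A14-201 at 69.7% in TGFbeta1 1.

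S100A4, also called metastasin or FSP1, binds non-muscle myosin and is widely used as a marker of mesenchymal change. It was a low-level gene here, and its level was not called higher with TGFbeta1 in either set. It had 14.1, 20.1 and 15.97 FPKM with TGFbeta1 in the second set, against 27.0, 15.2 and 23.4 in the controls, with overlap (log2 change -0.35, SE 0.23, adjusted p = 0.640). First-set S100A4 stood at 3.67, 3.85 and 3.11 FPKM with TGFbeta1, against 9.24, 8.56 and 9.63 in the controls. S100A4 fell, with TGFbeta1 libraries all below controls (log2 change -1.16, SE 0.10, adjusted p = 0.00120), and the call held without any one library. Of its transcripts the one called was S100A4-203, at 2.20, 1.25 and 0.520 FPKM with TGFbeta1 and 6.25, 5.34 and 7.96 in controls (log2 change -1.75, SE 0.31, adjusted p = 0.0376). Its share of the gene was 16.7% to 59.9% with TGFbeta1 and 62.4% to 82.6% in controls. The 5 S100 transcripts called lower in the first set became 2 to 4 with a library left out. Whether the call of S100A4-203 was among those lost is not reported here. Transcript S100A4-204 was not called (log2 change -0.14, SE 0.25, adjusted p = 0.793), and all 4 transcripts carry the same coding sequence. The difference between the sets for the gene was 0.82 (SE 0.27, adjusted p = 0.0783), and it passed the threshold without control 4 (0.98, adjusted p = 0.0398).

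S100A6, or calcyclin, is abundant in proliferating epithelial cells and binds the ubiquitin-pathway adaptor CACYBP. It had 1077, 931 and 1065 FPKM with TGFbeta1 in the second set, against 939, 873 and 983 in the controls, with overlap (log2 change 0.13, SE 0.08, adjusted p = 0.584). First-set S100A6 stood at 851, 838 and 845 FPKM with TGFbeta1, against 966, 923 and 955 in the controls. TGFbeta1 libraries were all lower by a small margin (log2 change -0.17, SE 0.04, adjusted p = 0.0419). That call did not survive leaving out any one library (adjusted p = 0.0567 to 0.138), nor scaling by median of ratios (0.118) or by quantiles (0.629), nor a fit without the filter (0.0934) or without the variance trend (0.131). Second minus first set gave 0.30 (SE 0.09, adjusted p = 0.0617) and passed the threshold without TGFbeta1 5 (0.37, adjusted p = 0.0165). S100A6-201 supplied 82.6% to 89.6% of the gene's FPKM in every library of both sets.

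S100A2 is a nuclear and cytoplasmic member typical of basal epithelial cells and binds p53. It had 918, 867 and 935 FPKM with TGFbeta1 in the second set, against 807, 719 and 845 in the controls. All TGFbeta1 libraries were higher, without a call (log2 change 0.20, SE 0.07, adjusted p = 0.405). First-set S100A2 stood at 1269, 1188 and 1334 FPKM with TGFbeta1, against 927, 900.5 and 1264 in the controls, where control 3 lay among the TGFbeta1 values (log2 change 0.31, SE 0.14, adjusted p = 0.185). Without control 3 the change was 0.47 with an adjusted p of 0.0126. S100A2, like S100A10 and S100A11, had a positive log2 change in both sets, though the first set does not determine the direction for S100A11. For S100A2 the difference between the sets was -0.11 (95% interval -0.49 to 0.27, adjusted p = 0.736).

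The S100A2 transcripts differ in their coding sequence. S100A2-201, of 95 codons, was called in the first set, with 295, 275 and 310.2 FPKM with TGFbeta1 and 208, 202 and 215 in controls (log2 change 0.49, SE 0.07, adjusted p = 0.0210). TGFbeta1 libraries were all above controls, control 3 included. That call was lost in 5 of the 6 fits that left out a library, all but the one without control 3, and also with no filter or without the variance trend. The main transcript S100A2-202, of 97 codons, held 47.0% to 56.5% of the gene in every library of both sets and was not called in either. In the second set S100A2-201 had 273, 259 and 262 FPKM with TGFbeta1 and 243, 196 and 257 in controls, again with no overlap (log2 change 0.20, SE 0.11, adjusted p = 0.798).

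S100A10, or p11, needs no calcium to take its open form and forms a complex with annexin A2 at membranes. It had 224, 189 and 215 FPKM with TGFbeta1 in the second set, against 199.6, 193 and 204 in the controls, with overlap (log2 change 0.07, 95% interval -0.11 to 0.25, adjusted p = 0.784). First-set S100A10 stood at 584, 490.2 and 537 FPKM with TGFbeta1, against 487, 484 and 477 in the controls. TGFbeta1 libraries were all higher there, TGFbeta1 2 by little, and no call was made (log2 change 0.15, 95% interval -0.03 to 0.33, adjusted p = 0.209). The gene of its partner, ANXA2, was not called either (log2 changes of 0.10 and 0.20 in the second and first sets). The ratio of S100A10 to ANXA2 was 0.263 ± 0.030 with TGFbeta1 and 0.267 ± 0.009 in controls of the second set (SD, n = 3 each; exact permutation test, two-sided, p = 0.8). That ratio in the first set was 0.464 ± 0.031 with TGFbeta1 and 0.484 ± 0.065 in controls (SD, n = 3 each; exact permutation test, two-sided, p = 0.7).

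S100A11, or calgizzarin, binds annexin A1 and takes part in membrane repair and keratinocyte growth control. Second-set S100A11 stood at 861, 813 and 849 FPKM with TGFbeta1, against 791, 712 and 785 in the controls, with no overlap and no call (log2 change 0.14, SE 0.06, adjusted p = 0.457). Its first-set replicates were far apart, at 1119.8, 413 and 417 FPKM with TGFbeta1 and 506, 1097 and 313 in the controls. TGFbeta1 1 and control 2 stood at more than double their fellows, and the log2 change of 0.05 has a 95% interval of -1.43 to 1.53, so the first set does not determine its direction. It turned to -0.43 without TGFbeta1 1, -0.37 without control 3 and -0.02 without control 1.

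At the level of single transcripts, 3 of 26 tested were called in the second set, the main transcripts of S100A7, S100A8 and S100A9, all higher with TGFbeta1, where 0.221% of all transcripts were called and 0.118% as higher. Of 24 tested in the first set 6 were called, where 5.54% of all transcripts were, 2.71% as higher and 2.83% as lower. These were S100A2-201 as higher and S100A4-203, S100P-201 and the main transcripts of S100A7, S100A8 and S100A9 as lower. The authors' deposited table for the second set gives q-values per transcript from their own test. In it no member transcript had q under 0.05, and only 28 of all 29204 transcripts listed did. Its lowest q-values among members were 0.124 for S100A7-202, 0.142 for S100A9-201 and 0.166 for S100A8-202, with log2 fold changes of 1.77, 0.64 and 0.67 in the authors' deposited table.

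Of 11 further S100 genes, 3 passed the filter in each set and none was called in either. Of all genes, 0.321% were called in the second set and 20.9% in the first. S100A16, a broadly expressed member next to S100A14, averaged 195 ± 30.4 FPKM with TGFbeta1 and 153 ± 10.2 in controls of the second set, and 105 ± 2.39 with TGFbeta1 and 135 ± 19.6 in controls of the first set (SD, n = 3 each). Its changes of 0.34 and -0.34 on the log2 scale were called as different between the sets. The test of that difference called 13.6% of all genes, 7.54% as positive. S100A13 and S100A3 were not called in any comparison, with log2 changes of -1.45 and -0.25 in the second set and 0.31 and -0.06 in the first. S100A13 thus had the opposite sign to S100A16 in each set, and S100A3 in the second set only. Among 7 fused-type genes, whose products join an S100 domain to long repeats, only CRNN passed the filter, and only in the first set. CRNN, or cornulin, was listed at 0 in the 3 TGFbeta1 libraries and at 2.04, 1.81 and 3.75 FPKM in the controls. It passed the filter only through the controls, so its test is not given.

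Annexins, the membrane-binding partners of several S100 proteins, moved in both directions in the first set. Of 11 tested there, 2 rose and 4 fell, where 20.9% of all genes were called and 11.9% as lower, and of 10 tested in the second set none passed, where 0.321% of all genes did. ANXA1, a partner of S100A11, averaged 333 ± 40.1 FPKM with TGFbeta1 and 609.7 ± 63.6 in controls of the first set (SD, n = 3 each; log2 change -0.87). ANXA6 averaged 40.9 ± 0.781 with TGFbeta1 and 11.45 ± 2.01 in controls there (log2 change 1.76), and ANXA3 fell by 0.78 on the log2 scale. ANXA9, another of the 4, passed the filter only through the controls, so its call is no support. Of 10 annexins in the test of the difference between the sets, 2 were called in each direction. That test called 13.6% of all genes, 7.54% as positive.

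Among receptors and partners the calls within a set came from the first set, where 20.9% of all genes were called and 11.9% as lower. In the second set only 0.321% of all genes were called. Of 5 surface receptors of S100 proteins tested in each set, none was called in the second. In the first set TLR2, a receptor of bacterial lipoproteins, was called higher, at 11.8, 12.3 and 12.2 FPKM with TGFbeta1 against 2.81, 0 and 3.10 in controls, and ALCAM, an adhesion molecule, was called lower (log2 change -0.35). Of 19 intracellular partners none was called in the second set, and 2 rose and 6 fell in the first. Those that rose were AHNAK2, a giant scaffold protein gene (log2 change 1.16), and PPFIBP1, which encodes the S100A4 partner liprin beta 1 (0.54), while EZR, the gene of the S100P partner ezrin, fell by 0.47 on the log2 scale and DLG5 by 0.60. Of 13 calcium-binding EF-hand genes outside the family, 1 rose and 1 fell in the first set, CALU (0.78) and CHP1 (-0.39), and none was called in the second.

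Of transcription factors reported to regulate S100 genes, 15 were tested in the second set with no call, beside 0.321% of all genes called there. In the first set 13 were tested and 2 called in each direction, where 20.9% of all genes were called and 11.9% as lower. JUN, an AP-1 subunit, averaged 19.7 ± 1.14 FPKM with TGFbeta1 and 13.3 ± 0.841 in controls of the second set, where it missed the threshold (SD, n = 3 each; adjusted p = 0.0914 from limma). It rose in the first set, to 29.3 ± 2.91 FPKM with TGFbeta1 against 17.5 ± 0.506 in controls (SD, n = 3 each; adjusted p = 0.0045 from limma). CEBPB rose by 0.27 in the first set. KLF4 and GRHL3, regulators of epidermal differentiation, fell by 0.54 and 1.46 on the log2 scale there.

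The members did not all vary together. With each library taken as its deviation from the mean of its set, Pearson's r of log2(FPKM + 1) over the 12 libraries was 0.98 between S100A8 and S100A9, 0.96 between S100A9 and S100P, 0.92 between S100A8 and S100P, and 0.75 between S100A7 and S100A9. The lowest value among pairs was that of S100A4 with S100A10, -0.63. The libraries share their set and treatment, so these r describe mainly which genes separate the same groups, and no p is given. By the same measure over 10571 genes, the genes outside the family most like S100A9 were LCN2 (r = 0.998), which encodes the iron-binding protein lipocalin 2, SPRR1B (0.997), which encodes a cornified envelope protein, and the interleukin antagonist gene IL1RN (0.995). Those most like S100A8 were the retinoic acid carrier gene CRABP2, the transglutaminase gene TGM1 and SPINK7, at 0.988, 0.988 and 0.984. For S100A7 they were GPHN, TIMM23B and the serpin gene SERPINB3, at 0.969, 0.941 and 0.934. For S100P they included PUS1 and FYB1, at 0.997 and 0.978. For the members with smaller changes the nearest genes were LRP8 for S100A2 (0.914), AARSD1 for S100A4 (0.976), LSM4 for S100A6 (0.964), TMUB2 for S100A10 (0.869), NDUFB6 for S100A11 (0.964) and TM4SF1 for S100A14 (0.927).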

How the data were processed

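Total RNA was extracted with Trizol and sequenced from standard Illumina libraries, per the labels' protocols. HISAT2 2.0.4, StringTie 1.2.3, FastQC, cutadapt and the build hg19 appear in the submitters' processing notes. Not given in the sources used here: settings, annotation release and strandedness. In 2 tables the authors deposited FPKM per transcript. The unit of the first is not named in its header and was inferred from its values. For the second table the authors also deposited log2 fold changes, linear fold changes, p-values and q-values, used here only where their table is named. FPKM divide by each library's own total, so a few abundant genes can shift all others, and reads of similar S100 paralogs can be misassigned.

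FPKM were summed per gene symbol, after 193 symbols of the first table were renamed through 27453 shared transcripts (no member was affected). Genes with a mean of at least 1 FPKM were tested within each set on log2(FPKM + 1) using limma 3.58.1 (R 4.3.3), with a mean-variance trend, two-sided, at an adjusted p under 0.05. A fold on that scale understates the change of low genes. The difference between sets was 1 contrast over all 12 libraries, and transcripts were tested alike. Ratios were compared by exact permutation. Python 3.11.15, numpy 2.4.6, pandas 2.3.3, scipy 1.17.1 and matplotlib 3.10.9 served for the rest, and the procedure was tested on simulated data. RefSeq windows were matched by symbol for all 10 members.

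The members and the gene lists were chosen with earlier results of these data known. Named were all 10 members, up to 4 called genes of each list and the 3 genes most like S100A7, S100A8, S100A9 and S100P, of which 1 is not reported here. The rule also took 3 for each other member, and the nearest of them is named. The alternatives tried were a minimum of 5 FPKM or no filter, a pseudocount of 0.1, median-of-ratios and quantile scaling, limma without trend or with robust variance, only transcripts in both tables, a block on the replicate number, and each library left out in turn. Where a group was left with 2 libraries, the spread was pooled over groups.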

Additional observations from a re-analysis of the deposited data

Results flagged for a closer look

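For 4 members the TGFbeta1 effect differed between the sets in the test of that difference itself, with the log2 change of the second set minus that of the first being 4.73 for S100A9, 3.005 for S100A8, 3.38 for S100A7 and 6.02 for S100P. The changes of the second and first sets were 0.64 and -4.08 for S100A9, 0.70 and -2.31 for S100A8, 1.77 and -1.61 for S100A7, and 0.29 and -5.73 for S100P. The test of the difference called 13.6% of all genes, 7.54% as positive. S100A9, S100A8 and S100A7 were called in both sets, in opposite directions, and S100P in the first set only. The second-set calls of S100A9 and S100A8 were lost whichever library was left out. Those of S100A7 were lost in either set without some single libraries. The sets are separately normalised tables, and what about the sets goes with this difference cannot be told apart.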

How the results depend on the processing

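Of 510 recomputed log2 changes of members, 463 kept their direction and side of the threshold, 35 lost a call, 5 gained one and 7 changed sign. All sign changes were of S100A11, whose change ranged up to 0.54 in the first set and 0.57 in the difference with a library left out. In the first set it turned from 0.05 to -0.43 without TGFbeta1 1, -0.02 without control 1 and -0.37 without control 3, and the difference between sets turned from 0.09 to -0.11 with quantile scaling, -0.15 without TGFbeta1 2, -0.14 without TGFbeta1 3 and -0.40 without control 2. The 3 S100 genes called in the second set became 1 without trend and 0 to 1 with a library left out, and all 34 genes called there became 20 and 0 to 23. The 45 transcripts called in the second set became 27 with a pseudocount of 0.1 and 27 with a minimum of 5 FPKM, and its 3 S100 transcripts became 1 without trend and 0 to 1 with a library left out. In the first set the 6 S100 genes became 4 to 6 and all 2186 genes 1354 to 2030 with a library left out. Its 1003 transcripts became 655 with no filter and 406 to 784 with a library left out, and its 6 S100 transcripts 3 and 2 to 5. The 4 S100 genes called in the difference became 4 to 5. The cause was not tested. Depth is unknown, so counting error could not be set beside the low levels of S100A4, S100A7 and S100P.

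Same-numbered TGFbeta1 and control libraries deviated together little (r = 0.017 to 0.046 in the second set and 0.007 to 0.017 in the first). With 3 libraries per group such small values show no clear pairing by number but cannot exclude it. In the second set each library correlated best with its own number. With the replicate number as a block, calls in the second set became 0 genes, 0 S100 genes, 1 transcript and 0 S100 transcripts, and in the first set 1211 genes, 4 S100 genes, 45 transcripts and 1 S100 transcript. S100A7 and S100A6 were those lost from the S100 genes of the first set (adjusted p = 0.0652 and 0.115), and S100A6 joined those of the difference, which became 5 (adjusted p = 0.0413).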
